A study of Rattus norvegicus with 8 samples.

Results

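The comparison described here asks whether a plasmid labelled pCMV6.ODAM changes the TGF response of SF2 cells, a rat dental epithelial line from the incisor's cervical loop. For each gene the TGF response with a plasmid is the TGF library minus the N library on the log2(CPM + 1) scale, where CPM scales reads to the library total. The plasmid-by-TGF difference is the response with pCMV6.ODAM minus the response with pCMV6. A positive difference means a more positive TGF response with pCMV6.ODAM. The difference was taken once within AmeloD-overexpressing SF2 cells and once within Control SF2 cells. Genes reaching 1 CPM in 4 or more of the 8 libraries entered, which left 6849 of 30240 table rows, or 22.6%.

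The 8 libraries cross 3 factors with 1 library per combination: AmeloD or Control, pCMV6 or pCMV6.ODAM, and N or TGF. Every library's treatment label names a pCMV6 plasmid, so the N libraries carry one too. The labels do not spell out N or TGF, and they give no ligand isoform, dose or time, no ODAM species or tag, and no number of clones behind each genotype. No combination is replicated, so neither genotype's difference has a replicate error of its own. The tests use limma on all 8 libraries, where the spread comes from 3 residual degrees of freedom that also hold any way in which the genotypes differ in their responses.

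TGF-beta ligands signal through paired serine/threonine kinase receptors that phosphorylate SMAD proteins, which enter the nucleus and switch on feedback regulators such as Pmepa1 and matrix genes such as Ccn2 and Fn1. In the enamel organ this pathway takes part in epithelial differentiation and enamel formation. ODAM, odontogenic ameloblast-associated protein, is secreted by maturation-stage ameloblasts and by the junctional epithelium that attaches gum to tooth. AmeloD, the product of Ascl5, is a bHLH transcription factor found in dental epithelium.

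Odam (ENSRNOG00000023372, chromosome 14, 20193302 to 20202517, minus strand, mRatBN7.2) was counted in very few reads. In AmeloD it had 0 reads in both pCMV6 libraries, 1 with pCMV6.ODAM N and 3 with pCMV6.ODAM TGF. In Control it had 1 read with pCMV6 N, 0 with pCMV6 TGF, 10 with pCMV6.ODAM N and 17 with pCMV6.ODAM TGF. The order of the reads follows the plasmid labels within each genotype, but at a level far below the 1 CPM filter, so Odam itself was not tested. Ascl5 (ENSRNOG00000033391, chromosome 13, 47492026 to 47492592) had 0 reads in every library, which allows at most 0.169 to 0.284 CPM from 3 reads. The library kit counts transcript 3′ ends. Because the labels do not say whether either construct holds the gene's own 3′ end, these counts do not measure how much of either protein was made.

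Library totals recovered from the CPM steps were 10568146 to 17775226 reads, of which 1662973 to 2854134 reads (15.6 to 17.5%) were in the table's rows, and 12453 to 13152 rows had a read. Dental epithelial markers summed to 592 to 1005 CPM per library, with 1 of 11 at 0 throughout. Markers of dental mesenchyme, odontoblasts and bone summed to 0.816 to 3.77 CPM (6 of 14 at 0 throughout), those of leukocytes to 0.939 to 4.32 CPM (5 of 14) and those of endothelium to 0.742 to 2.27 CPM (4 of 11). The highest share of reads in the table's rows was in Control pCMV6.ODAM TGF (17.5%) and the lowest in Control pCMV6.ODAM N (15.6%). The median difference over all tested genes was 0.11 in AmeloD and 0.22 in Control on the log2 scale. The median interaction was 0.16 with the deposited scaling and 0.00 with edgeR's TMM scaling, so directions below are also given relative to the all-gene medians.

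No gene's TGF response differed between the plasmids at an adjusted p under 0.05. Of 6849 genes, 0 were called higher and 0 lower (0.00% each), and the smallest adjusted p was 0.578 (limma, Benjamini-Hochberg, two-sided). At an unadjusted p under 0.05 limma had 504 genes, edgeR's quasi-likelihood test on recovered reads 353 and DESeq2 130, and neither count-based tool called a gene after adjustment. The median half-width of the 95% interval of the interaction was 0.73 on the log2 scale over all tested genes and 0.49 over the 1532 genes averaging 10 CPM or higher. Differences inside those intervals could not be told from 0 with these libraries. In the same fit the TGF term called 114 genes higher (1.66%) and 23 lower (0.336%), the plasmid term called 0 (0.00%) and the genotype term 1035 (15.1%). TMM scaling changed the TGF calls to 89 higher and 37 lower. The labels name no separate cultures, so every p-value measures only the spread between these libraries.

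The 10 genes with the largest TGF term among those averaging 10 CPM or higher had differences of -1.03 to 0.64 in AmeloD and -0.30 to 1.45 in Control, and 0 of the 10 had a called interaction. A step between N and TGF libraries is how the 10 were chosen, so it supports nothing. Ccn2 (ENSRNOG00000015036), a secreted matricellular protein and a classical TGF-beta target, went in AmeloD from 7.66 CPM with N to 48.8 with TGF under pCMV6, and from 4.45 to 35.1 under pCMV6.ODAM. In Control it went from 1.31 to 14.7 under pCMV6 and from 1.42 to 12.3 under pCMV6.ODAM. All 4 TGF libraries lay above all 4 N libraries, and the TGF responses were 2.52 and 2.73 in AmeloD and 2.76 and 2.46 in Control for pCMV6 and pCMV6.ODAM. The Ccn2 difference was 0.21 in AmeloD and -0.30 in Control, and the interaction was -0.05 ± 0.29 (SE, 95% interval -0.65 to 0.56, adjusted p = 0.984, limma).

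Igfbp5, a secreted binding protein for insulin-like growth factors, was at 0.852 and 1.33 CPM in the AmeloD N libraries (pCMV6, then pCMV6.ODAM) and at 7.02 and 6.15 CPM in the TGF libraries. In Control its N libraries held 10.3 and 14.4 CPM and its TGF libraries 46.6 and 60.5 CPM. Within each genotype the N and TGF libraries of Igfbp5 did not overlap, and its difference was -0.50 in AmeloD and -0.08 in Control. Fn1, the gene of the matrix glycoprotein fibronectin, was at 20.0 and 14.8 CPM with N and 55.2 and 41.3 CPM with TGF in AmeloD, in the same plasmid order. In Control Fn1 was at 35.5 and 30.3 CPM with N and 53.1 and 64.4 CPM with TGF. Its difference was -0.00 in AmeloD and 0.49 in Control, with an interaction of 0.25 ± 0.26 (SE, adjusted p = 0.858, limma).

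Prss23, which encodes a secreted serine protease, had the largest interaction of the 10 strongest responders, 0.53 ± 0.27 (SE, 95% interval -0.03 to 1.09, adjusted p = 0.687, limma). In AmeloD it went from 7.57 to 26.1 CPM under pCMV6 and from 6.30 to 35.0 CPM under pCMV6.ODAM. In Control it went from 4.94 to 14 CPM under pCMV6 and from 5.01 to 19.3 CPM under pCMV6.ODAM. The response was larger with pCMV6.ODAM in each genotype, by 0.64 and 0.42. For Control the 95% counting interval of the Prss23 difference, which covers counting error only and is taken on the reads without a pseudocount, ran from -0.07 to 0.96 and included 0. The remaining strong responders were Cyba (a subunit of the NADPH oxidase), Klhl8, Fermt1 (kindlin-1, an integrin activator), Wfdc18, Prl8a7 and Cald1 (an actin-binding protein). In AmeloD Prl8a7 had 3 reads with pCMV6.ODAM TGF and 0 in every other library, against 167 to 895 reads in the Control libraries. Its TGF term of 1.12 therefore rests almost wholly on Control, and its AmeloD difference of 0.29 on those 3 reads. Across the 10 the interaction ran from -0.29 to 0.53 and the adjusted p from 0.687 to 0.984.

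Pmepa1, a membrane protein that dampens SMAD signalling, lies under the 10 CPM level used to choose genes by name and was picked after its values were seen. It was at 0 to 0.135 CPM in the 4 N libraries. With TGF it was at 8.50 CPM under pCMV6 and 6.51 under pCMV6.ODAM in AmeloD, and at 6.41 and 9.81 in Control. The Pmepa1 difference was therefore -0.44 in AmeloD and 0.53 in Control, with an interaction of 0.04 ± 0.38 (SE, adjusted p = 0.989, limma). Every TGF library stood above every N library.

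**Figure D1:**
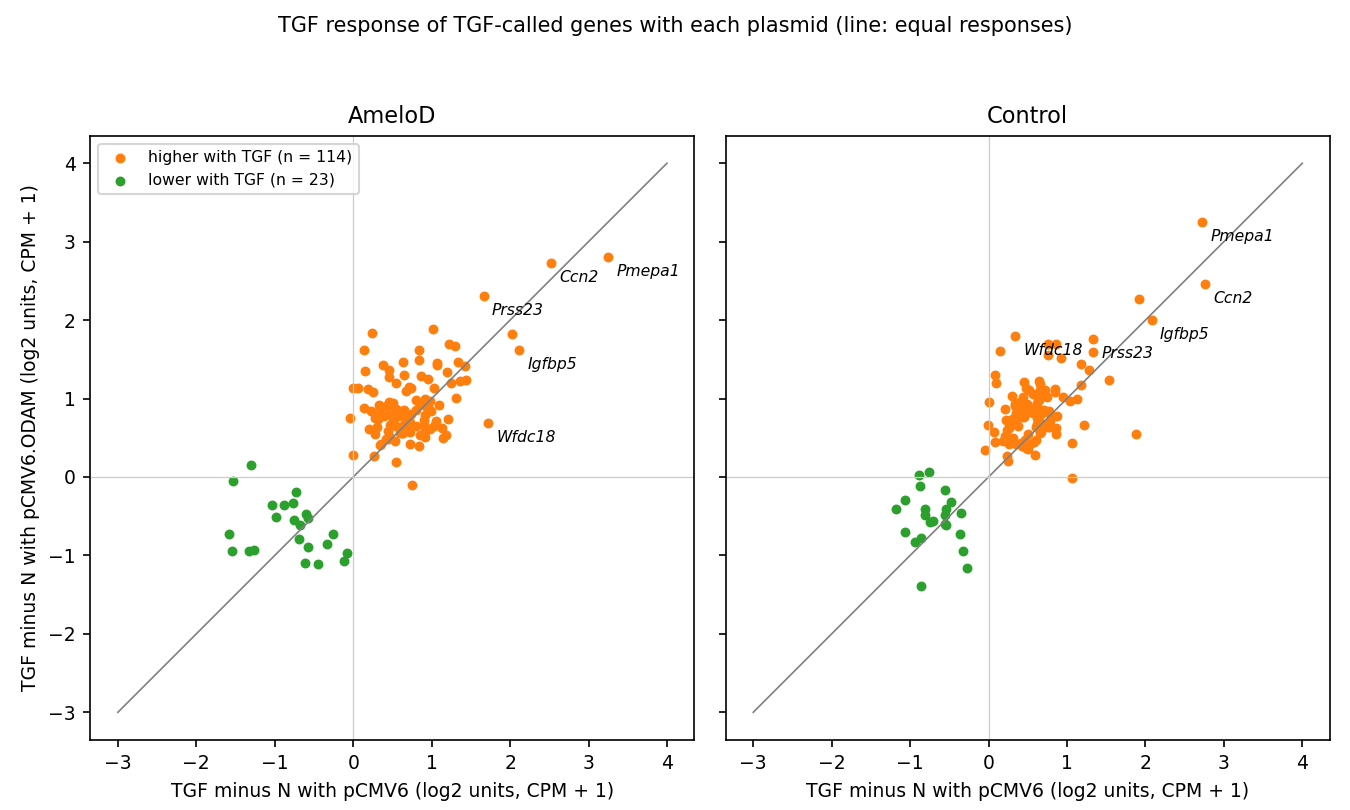
TGF response with pCMV6 (x axis) against that with pCMV6.ODAM (y axis) for the 137 genes called for the TGF term, in AmeloD (left) and Control (right). Each point is 1 gene in log2 units of CPM + 1, the diagonal marks equal responses, and Ccn2 and Pmepa1 lie near it at the upper right of both panels.

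Over the 114 genes called higher with TGF, the median response in AmeloD was 0.70 with pCMV6 and 0.85 with pCMV6.ODAM, and in Control 0.57 and 0.82. The response had the same sign under both plasmids for 110 genes in AmeloD and 111 in Control. It was larger with pCMV6.ODAM for 73 of 114 genes in AmeloD and 88 of 114 in Control, but relative to the all-gene medians for 56 and 67. Over the 23 genes called lower, the median response was -0.72 with either plasmid in AmeloD, and -0.74 with pCMV6 and -0.48 with pCMV6.ODAM in Control. The response was larger with pCMV6.ODAM for 8 of 23 genes in AmeloD and 7 of 23 in Control, but relative to the all-gene medians for 10 and 14. Differences were then signed so that a positive value is a larger response with pCMV6.ODAM. Their median was 0.10 in AmeloD and 0.28 in Control over the 114 genes, and -0.21 and -0.14 over the 23. Over all 137 the signed median was 0.08 in AmeloD and 0.26 in Control. With TMM scaling the values were 0.05 and 0.07. Because the TGF calls come from both plasmids' libraries, genes with a response under either plasmid could be called, and the TGF term is orthogonal to the interaction in this balanced design. Of the 137 genes, 0 had their interaction called.

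The differences of the 2 genotypes come from separate sets of 4 libraries and can be laid side by side. Across the 6849 genes their Pearson correlation was -0.013 and their Spearman correlation -0.000, a description across genes that share libraries and are not independent. For the 1532 genes averaging 10 CPM or higher the values were -0.019 and 0.071, and for the 428 genes with at least 50 CPM -0.148 and 0.098. The standard deviation over genes was 0.52 in AmeloD and 0.47 in Control. The 2 values had the same sign for 3642 genes (53.2%), of which 2790 (40.7%) were positive in both and 852 (12.4%) negative in both, and opposite signs for 3207 (46.8%). Measured from the all-gene medians instead of 0, 25.4% of genes were above in both and 25.4% below in both, which is 50.8% on the same side.

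Past 1 log2 unit, 294 genes were higher (4.29%) and 137 lower (2.00%) in AmeloD, and 296 higher (4.32%) and 61 lower (0.891%) in Control. In both genotypes 14 genes were past 1 unit higher (0.204%) and 5 lower (0.0730%), while 17 were past it in opposite ways (0.248%). All 19 that shared a direction had means of 1.18 to 5.19 CPM, with 2 to 114 reads in a library. The 17 with opposite directions reached 96.8 CPM. Among 1531 of those averaging 10 CPM or higher, all with reads in every library, the 95% counting interval excluded 0 for 45.9% in AmeloD and 51.1% in Control. The intervals take each read as a separate molecule, and whether molecular identifiers entered the counting is not known. If each read is one, counting error alone did not cover these differences. The spread between cultures was not measured. Relative to the all-gene medians, 70 of these genes were beyond counting error above in both genotypes, 124 below in both and 116 in opposite ways.

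**Figure D2:**
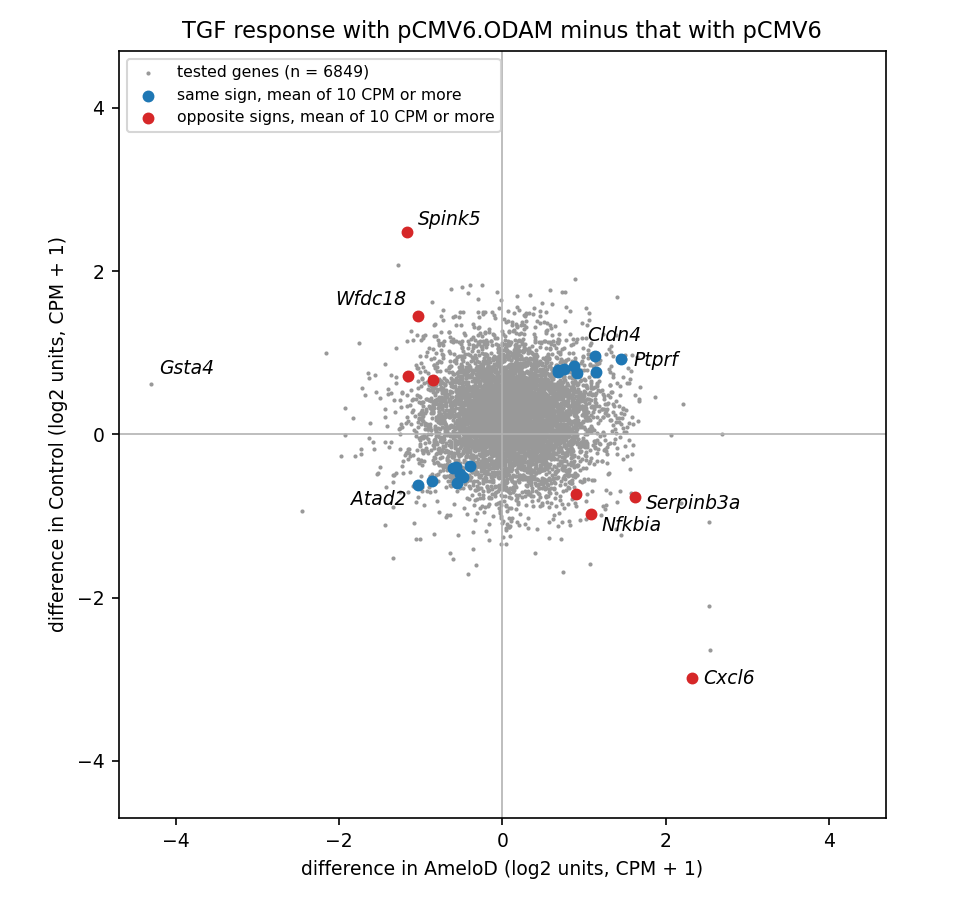
Plasmid-by-TGF difference in AmeloD (x axis) against that in Control (y axis), in log2 units of CPM + 1, for the 6849 tested genes (grey). Blue marks the 16 genes with at least 10 CPM chosen for same-sign values and red the 8 chosen for opposite signs, and the grey cloud is round, with Cxcl6 and Spink5 as the far red points.

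Among genes averaging 10 CPM or higher, the 8 furthest to the positive side in both genotypes were Cldn4, Ptprf, Pdia6, Tmed3, Prnp, Tmed2, Elovl1 and Dhx30. They were ranked by the smaller of their 2 values, so their direction is how they were chosen and supports nothing. Their interactions were 0.73 to 1.18 and their adjusted p-values 0.578 to 0.594 (limma), so none passed the test. In all 8 the counting interval was above 0 in both genotypes, as it was for 212 of 1531 genes averaging 10 CPM or higher. These intervals rest on the same values that chose the 8, so they add no support.

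Cldn4 (ENSRNOG00000001476, chromosome 12), which encodes the tight-junction protein claudin-4, stayed at 14 CPM with N and with TGF under pCMV6 in AmeloD. Under pCMV6.ODAM it was 8.90 CPM with N and 20.7 with TGF. In Control it was 7.70 and 7.71 CPM under pCMV6, and 5.62 and 11.9 CPM under pCMV6.ODAM. In each genotype the pCMV6.ODAM N library was the lowest of 4 and the pCMV6.ODAM TGF library the highest. Taken as the difference from each gene's mean over the 8 libraries, the median of all tested genes had the same order. It was 0.026 and 0.023 (N, then TGF) under pCMV6 and -0.009 and 0.085 under pCMV6.ODAM in AmeloD. In Control it was -0.015 and -0.076, and -0.082 and 0.072. The Cldn4 difference was 1.14 in AmeloD and 0.96 in Control, with an interaction of 1.05 ± 0.26 (SE, 95% interval 0.51 to 1.59, adjusted p = 0.578, limma).

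Ptprf (ENSRNOG00000019977, chromosome 5), a receptor tyrosine phosphatase found at cell contacts, differed mainly through its pCMV6 libraries. It went from 18.5 CPM with N to 6.93 with TGF under pCMV6 in AmeloD and from 18.7 to 9.62 in Control. Under pCMV6.ODAM it was 14.1 and 15.7 CPM in AmeloD and 16.5 and 16.8 CPM in Control. The 2 pCMV6 TGF libraries stood below the other 6. The Ptprf interaction was 1.18 ± 0.25 (SE, 95% interval 0.66 to 1.70, unadjusted p = 0.000111, adjusted p = 0.578, limma).

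Tmed2 and Tmed3 encode cargo receptors of the vesicles that run between endoplasmic reticulum and Golgi, and Pdia6 a disulfide isomerase of the reticulum. Tmed3 was at 9.94 and 8.50 CPM (N, then TGF) under pCMV6 and at 8.6 and 17.5 CPM under pCMV6.ODAM in AmeloD. In Control Tmed3 was at 8.57 and 8.27 CPM, and at 8.19 and 14.2 CPM. The pCMV6.ODAM TGF library was the highest of 4 in each genotype, as it was for the all-gene median. Pdia6 was at 14.4, 14.5, 9.57 and 18.5 CPM in AmeloD and at 12.3, 8.49, 6.37 and 8.45 CPM in Control, in the same order of libraries. There the Control value came from a pCMV6 N library that was the highest and a pCMV6.ODAM N library that was the lowest of 4, so the levels that gave a like difference for Pdia6 (0.87 and 0.84) were not alike.

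On the lower side the 8 genes were Atad2, Dclre1a, Parg, Ctrl, Hmgb2, Prc1, Uqcc5 and Sct, with interactions of -0.83 to -0.39 and adjusted p-values of 0.578 to 0.752 (limma). Among them, Atad2 is a bromodomain ATPase, Dclre1a repairs DNA crosslinks, Hmgb2 is a high-mobility-group chromatin protein and Prc1 organises the midzone of the spindle. Atad2 went from 11.6 to 26.2 CPM under pCMV6 and from 19.4 to 20.5 CPM under pCMV6.ODAM in AmeloD. In Control it went from 27.1 to 36.1 CPM and from 36.6 to 31.3 CPM. In each genotype the pCMV6 N library was the lowest of 4, and the Atad2 interaction was -0.83 ± 0.25 (SE, 95% interval -1.34 to -0.32, adjusted p = 0.578, limma). Hmgb2 had the same order in its lowest library: 47.2 CPM in AmeloD pCMV6 N against 68.6 to 72.6 in the other 3, and 78.5 CPM in Control pCMV6 N against 79.1 to 97. Its interaction was -0.50 ± 0.20 (SE, adjusted p = 0.649, limma). In 7 of the 8 lower genes, all but Sct, the counting interval was below 0 in both genotypes, beside 27 of 1531. Those genes were also chosen by these values.

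**Figure D3:**
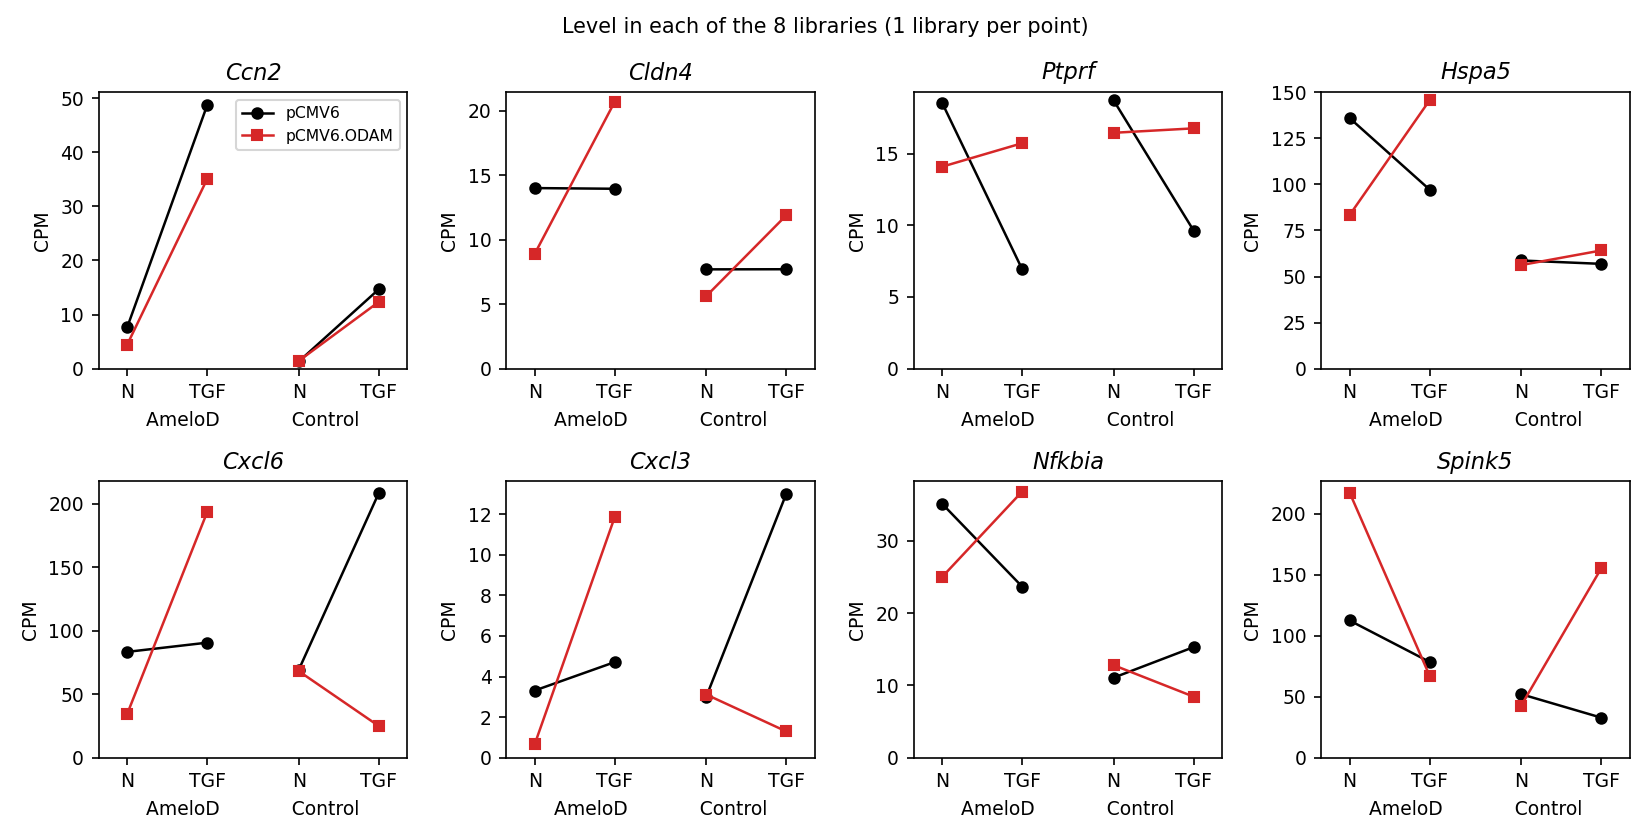
Level in CPM (y axis, from 0) of 8 genes in each of the 8 libraries, with N and TGF on the x axis and lines joining the 2 libraries of a plasmid within AmeloD or Control. Ccn2 is higher with TGF in all 4 pairs, Cldn4, Ptprf and Hspa5 cross or open the same way in both genotypes, and for Cxcl6, Cxcl3, Nfkbia and Spink5 the plasmid with the more positive step differs between AmeloD and Control.

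A wide disagreement between the genotypes was in a group of CXC chemokine genes, whose products draw neutrophils. Cxcl6 (ENSRNOG00000002843, chromosome 14, 17310426 to 17313093, mRatBN7.2) was at 83.5 CPM with N and 90.7 with TGF under pCMV6 in AmeloD, and at 34.7 and 194 CPM under pCMV6.ODAM. In Control it was at 69.4 and 209 CPM under pCMV6, and at 68.3 and 25 CPM under pCMV6.ODAM. The large step with TGF was therefore in the pCMV6.ODAM pair in AmeloD and in the pCMV6 pair in Control. The Cxcl6 difference was 2.33 in AmeloD (counting interval 2.17 to 2.55) and -2.99 in Control (counting interval -3.23 to -2.84). The interaction, which averages them, was -0.33 ± 0.73 (SE, adjusted p = 0.953, limma). The difference between the genotypes leaves no residual degree of freedom and was not tested. Cxcl6 was chosen for its opposite values, so its counting intervals add no support.

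Cxcl1, Cxcl2 and Cxcl3, neighbours of Cxcl6 on chromosome 14 between 17181062 and 17313093, had the same pattern at lower levels. They were named after their values were seen. Cxcl3 was at 3.31 and 4.71 CPM (N, then TGF) under pCMV6 and 0.667 and 11.9 CPM under pCMV6.ODAM in AmeloD, and at 3.0 and 13.0, and 3.12 and 1.30 CPM in Control. Cxcl1 was at 4.26, 5.08, 1.11 and 13.2 CPM in AmeloD and at 2.50, 5.57, 2.78 and 0.650 CPM in Control, in that order. In AmeloD the pCMV6.ODAM N library was the lowest of 4 and the pCMV6.ODAM TGF library the highest for all 4 chemokines, and in Control the pCMV6.ODAM TGF library was the lowest and the pCMV6 TGF library the highest. The differences were 2.54 and -2.10 for Cxcl1, 1.08 and -1.59 for Cxcl2, and 2.54 and -2.64 for Cxcl3, in AmeloD and Control. These paralogs are similar in sequence and may share reads, so they are not separate measurements.

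Ccl20, a chemokine for dendritic cells and some T and B cells, Nos2, the inducible nitric oxide synthase, and Nfkbia, the inhibitor IkB-alpha that NF-kB itself induces, were also positive in AmeloD and negative in Control. Nfkbia (ENSRNOG00000007390, chromosome 6) was at 35.1 and 23.7 CPM under pCMV6 and 25 and 36.8 CPM under pCMV6.ODAM in AmeloD. In Control it was at 11.1 and 15.3 CPM, and at 12.8 and 8.45 CPM. Its differences were 1.09 and -0.98, with neither counting interval reaching 0. Nfkbia was chosen for its opposite values, so these intervals add no support. Of 1531 genes averaging 10 CPM or higher, 158 had counting intervals that excluded 0 in opposite ways. For Ccl20 the differences were 1.39 and -1.16, and for Nos2, at 2.65 CPM or less in every library, 2.53 and -1.08. Leukocyte markers summed to at most 4.32 CPM, and their summed level had a difference of 0.70 in AmeloD and -0.37 in Control, the same signs as the chemokines. The part of these markers in the result was not tested.

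Because these genes are textbook targets of NF-kB, the 250 bases before the RefSeq start (GRCr8) were searched on both strands for the NF-kB consensus. Of the 7 genes (the 4 CXC genes, Ccl20, Nos2 and Nfkbia) 5 had an entry, and all 5 held a match, beside 6.33% of 33469 promoters of the same length. Of the 6 remaining genes named for opposite signs (Serpinb3a, Serpinb7, Spink5, Wfdc18, Mgst3 and Gabarap) 0 held one. The 5 sequences are shown so that the place and letters of each match can be read. They run 5′ to 3′ on the gene's strand, which is plus for Ccl20 and minus for the other 4, and end at the base before the start. Capitals mark the matched bases, which in the 3 CXC genes are overlapping matches that together span 11 bases.
Cxcl1: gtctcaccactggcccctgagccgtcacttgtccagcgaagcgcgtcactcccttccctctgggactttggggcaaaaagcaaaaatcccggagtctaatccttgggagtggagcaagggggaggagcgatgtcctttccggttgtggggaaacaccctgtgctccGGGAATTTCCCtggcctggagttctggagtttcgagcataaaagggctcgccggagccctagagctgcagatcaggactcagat
Cxcl2: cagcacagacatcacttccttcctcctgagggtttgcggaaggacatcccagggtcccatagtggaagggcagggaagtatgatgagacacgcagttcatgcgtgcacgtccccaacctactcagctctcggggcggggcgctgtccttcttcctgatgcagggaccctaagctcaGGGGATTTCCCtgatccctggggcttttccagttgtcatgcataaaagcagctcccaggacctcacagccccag
Cxcl6: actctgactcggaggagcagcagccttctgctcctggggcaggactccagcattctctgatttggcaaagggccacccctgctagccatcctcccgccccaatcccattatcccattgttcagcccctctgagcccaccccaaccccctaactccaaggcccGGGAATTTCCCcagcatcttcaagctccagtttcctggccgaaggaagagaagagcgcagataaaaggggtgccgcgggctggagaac
Ccl20: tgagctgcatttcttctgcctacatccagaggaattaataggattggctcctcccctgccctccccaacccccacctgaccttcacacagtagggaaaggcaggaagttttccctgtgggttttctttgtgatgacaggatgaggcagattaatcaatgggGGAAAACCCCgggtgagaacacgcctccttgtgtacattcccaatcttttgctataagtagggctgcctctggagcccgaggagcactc
Nfkbia: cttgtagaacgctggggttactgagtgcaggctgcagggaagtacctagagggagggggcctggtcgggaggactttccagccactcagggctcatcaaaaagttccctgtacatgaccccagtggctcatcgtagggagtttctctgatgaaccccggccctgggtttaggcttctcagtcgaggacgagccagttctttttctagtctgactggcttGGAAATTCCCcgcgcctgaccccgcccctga
The match began 84 bases before the start in Cxcl1, 74 in Cxcl2, 88 in Cxcl6, 89 in Ccl20 and 31 in Nfkbia. A match is only a run of letters and does not show that a factor was bound there in these cells. The genes were picked by their values and as known NF-kB targets, so a high count was to be had from the choice itself, and neither share is evidence about the factor.

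The other genes chosen for opposite signs ran in either direction. Serpinb3a, a serpin of stratified epithelia, was at 25.5 and 14.2 CPM (N, then TGF) under pCMV6 and at 15.1 and 27.6 CPM under pCMV6.ODAM in AmeloD. In Control it was at 5.01 and 6.19 CPM, and at 8.53 and 5.72 CPM, and its differences were 1.63 and -0.76. Serpinb7 had the same signs, 0.90 and -0.73. Serpinb3a belongs to a family of near-identical copies among which reads may be split.

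Spink5, which encodes the kallikrein inhibitor LEKTI, led those in the reverse direction when ranked by the smaller of the 2 absolute values. In AmeloD it was at 113 and 78.6 CPM under pCMV6 and at 218 and 67.3 CPM under pCMV6.ODAM, and in Control at 52.2 and 33.0 CPM, and at 42.7 and 155 CPM. The AmeloD value rests on a high pCMV6.ODAM N library and the Control value on a high pCMV6.ODAM TGF library. The Spink5 difference was -1.16 in AmeloD (counting interval -1.34 to -1.01) and 2.48 in Control (counting interval 2.33 to 2.72), with an interaction of 0.66 ± 0.58 (SE, adjusted p = 0.817, limma). Spink5 too was chosen for its opposite values, so its counting intervals add no support.

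Wfdc18, a WAP-domain protein, is also among the genes called higher with TGF (adjusted p = 0.00123, limma). Under pCMV6 it went from 7.38 to 26.5 CPM in AmeloD and from 4.51 to 5.96 CPM in Control. Under pCMV6.ODAM it went from 11 to 18.3 CPM in AmeloD and from 2.78 to 12.1 CPM in Control. TGF libraries were above their N libraries in all 4 pairs, with the larger step under pCMV6 in AmeloD and under pCMV6.ODAM in Control, and differences of -1.03 and 1.45. Mgst3, a microsomal glutathione transferase (-1.16 and 0.72), and Gabarap, an autophagy protein of the ATG8 family (-0.85 and 0.67), completed the set. Across these 8 opposite-sign genes the interaction adjusted p ran from 0.816 to 0.984 (limma).

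The members of 15 gene lists with at least 5 tested genes were then read by their 2 values, and 0 members of any list passed the interaction test. In 10 of the 15 the 2 medians had the same sign, positive in each case, as were the all-gene medians of 0.11 and 0.22. This count is taken against 0 and not against those medians. Of the 20 tested TGF-beta targets and feedback genes, 6 were called higher with TGF, beside 1.66% of all tested genes, and the list's median difference was 0.03 in AmeloD and 0.22 in Control, beside 0.11 and 0.22 over all tested genes. Tgfbi, a secreted matrix protein called higher with TGF, showed how single members departed from that: it went from 2.93 to 6.38 CPM under pCMV6 and from 2.30 to 4.24 under pCMV6.ODAM in AmeloD, and from 2.25 to 2.59 and from 1.22 to 5.78 CPM in Control. Its differences were -0.24 and 1.47. Of the 20 members, 4 were above both all-gene medians and 7 below both.

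Of the 10 tested genes of the BMP pathway and the Id family, 3 were called higher with TGF, beside 1.66% of all tested genes. The median differences were 0.37 and 0.36, and 3 of the 10 were above both all-gene medians, beside 25.4% of all tested genes. Inhba, which encodes the activin A subunit, was at 41.1 and 43.1 CPM under pCMV6 and at 21.4 and 48.4 CPM under pCMV6.ODAM in AmeloD. In Control it was at 35.3 and 45.3 CPM, and at 28.3 and 38.2 CPM. Its AmeloD difference of 1.07 came with a low pCMV6.ODAM N library, and its Control difference was 0.07 (interaction 0.57 ± 0.23 SE, adjusted p = 0.653, limma). Id1 and Id3, classical BMP targets, were below 5.2 CPM with differences of 0.41 and 0.47 for Id1, and 0.37 and 0.28 for Id3.

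In the matrix list, 10 of 23 tested genes were called higher with TGF and 1 lower, beside 1.66% and 0.336% of all tested genes, and the median differences were 0.15 in AmeloD and 0.41 in Control. Sparc, a collagen-binding matrix protein that was also called higher with TGF, was at 36.0 and 45.1 CPM (N, then TGF) under pCMV6 and at 30.3 and 51.5 CPM under pCMV6.ODAM in AmeloD. The Control libraries held 22.8 and 28.4 CPM, and 18.6 and 39.0 CPM, in that order. The pCMV6.ODAM N library was the lowest of 4 and the pCMV6.ODAM TGF library the highest in each genotype, as for the all-gene median. The Sparc differences were 0.43 and 0.73, with an interaction of 0.58 ± 0.21 (SE, adjusted p = 0.578, limma).

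Endoplasmic reticulum chaperones and stress genes had the largest share of positive members in both genotypes among the 15 lists. Of 26 tested, 20 were positive in both, beside 40.7% of all tested genes, 0 were negative in both, and 13 were above both all-gene medians, beside 25.4%. The medians were 0.56 in AmeloD and 0.23 in Control, the second near the all-gene 0.22. Hspa5, the chaperone BiP, was at 136 and 97.2 CPM under pCMV6 and at 83.4 and 146 CPM under pCMV6.ODAM in AmeloD. In Control it was at 58.7 and 56.9 CPM, and at 56.2 and 64.1 CPM. Its interaction was 0.76 ± 0.21 (SE, 95% interval 0.31 to 1.20, adjusted p = 0.578, limma), with 1.28 from AmeloD and 0.23 from Control. Canx, the lectin chaperone calnexin, was at 41.2 and 40.9, and 29.6 and 54.3 CPM in AmeloD, and at 45.0 and 49.6, and 44.0 and 63.1 CPM in Control. The pCMV6.ODAM TGF library was the highest of 4 in each genotype for both Hspa5 and Canx, as it was for the all-gene median. The median of the list in each library, as the difference from each gene's mean over the 8, was 0.24 with N and 0.06 with TGF under pCMV6 in AmeloD, and -0.10 and 0.32 under pCMV6.ODAM. The Control values were -0.04 and -0.20 under pCMV6, and -0.21 and -0.05 under pCMV6.ODAM, so there the pCMV6.ODAM TGF library was not above pCMV6 N.

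The cell-cycle list had medians of opposite sign, -0.46 in AmeloD and 0.40 in Control. Of 38 tested genes 12 were negative in both genotypes, 8 positive in both, 16 positive in Control only and 2 in AmeloD only, and 14 were below both all-gene medians, beside 25.4% of all tested genes. Over all tested genes 12.4% were negative in both, 40.7% positive in both and 46.8% of opposite signs. Among genes of DNA replication, Mcm2, a helicase subunit (-1.06 and -0.82), and Tk1, thymidine kinase (-1.09 and -0.63), were negative in both, while Mcm7, of the same helicase (-0.76 and 1.26), and Pcna, the sliding clamp (-0.33 and 0.48), had opposite signs. Among genes of mitosis, Ccnb1, cyclin B1 (-0.47 and -0.11), was negative in both, while Cenpf, a kinetochore protein (-1.40 and 0.50), and Aurka, the spindle kinase Aurora A (-0.95 and 1.21), had opposite signs. Aurka was at 2.93 and 4.62 CPM under pCMV6 and 4.60 and 3.15 CPM under pCMV6.ODAM in AmeloD, and at 6.26 and 5.01, and 2.03 and 4.81 CPM in Control. These members were picked after their values were seen, as illustrations of a mixed list. Ccnd1, the G1 cyclin D1, was called lower with TGF, and its differences were 0.21 and 0.76.

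The interferon and cytokine list had medians of 0.59 and -0.18, and its 18 tested members hold Cxcl1, Cxcl2, Cxcl3, Ccl20 and Nfkbia from above. In all, 8 of the 18 were positive in AmeloD only, which also takes in Irf7, an interferon regulatory factor (0.58 and -0.90), Icam1, an adhesion molecule (0.75 and -0.10), and Psmb9, an immunoproteasome subunit (0.04 and -0.88). Of the rest, 6 were positive in both genotypes, 2 negative in both and 2 positive in Control only. Among all tested genes 40.7% were positive in both, 12.4% negative in both and 46.8% of opposite signs in either direction. B2m, the light chain of class I MHC, was at 15 and 15.3, and 11.5 and 18.5 CPM in AmeloD, and at 12.0 and 10.2, and 11.3 and 17.5 CPM in Control, with differences of 0.61 and 0.80. Il1rn, the interleukin-1 receptor antagonist, had 0.54 and 0.59. Cxcl16, a CXC chemokine outside the group above, was also positive in both genotypes (0.49 and 0.24). The NF-kB subunit genes Nfkb1 (0.88 and 0.63) and Relb (0.94 and 0.49) were positive in both genotypes, and Nfkb2 (-0.43 and -0.26) negative in both.

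Epithelial junction and keratin genes (38 tested) had medians of 0.01 and 0.34, and cornified-envelope genes (24 tested) -0.03 and 0.40. In the second list 12 genes were positive in Control only and 2 in AmeloD only, beside 46.8% of all tested genes with opposite signs in either direction. Next to Cldn4, the junction list holds Tjp1, the scaffold ZO-1 (0.73 and 0.59), and Spint2, a membrane-bound inhibitor of serine proteases called higher with TGF (0.41 and 0.38). Sprr1a, a cornified-envelope precursor, was at 109 and 93.8, and 98.8 and 96.1 CPM in AmeloD, and at 22.2 and 15.2, and 19.8 and 22.6 CPM in Control. The 4 AmeloD libraries of Sprr1a all lay above the 4 Control libraries, and its differences were 0.17 and 0.69.

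The other lists had medians of 0.01 and 0.24 for AP-1 and immediate-early genes, 0.12 and 0.14 for hypoxia and glycolysis, 0.29 and 0.11 for cholesterol synthesis, -0.00 and 0.02 for p53 targets, and 0.13 and 0.08 for the Hedgehog pathway. Of the p53 targets 10 of 18 were below both all-gene medians, beside 25.4% of all tested genes. Gadd45a, a stress-response gene of that list, had 1.09 and 0.34 (interaction 0.71 ± 0.27 SE, adjusted p = 0.585, limma). Enamel matrix genes had only 4 tested members of 24 in the table.

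**Figure D4:**
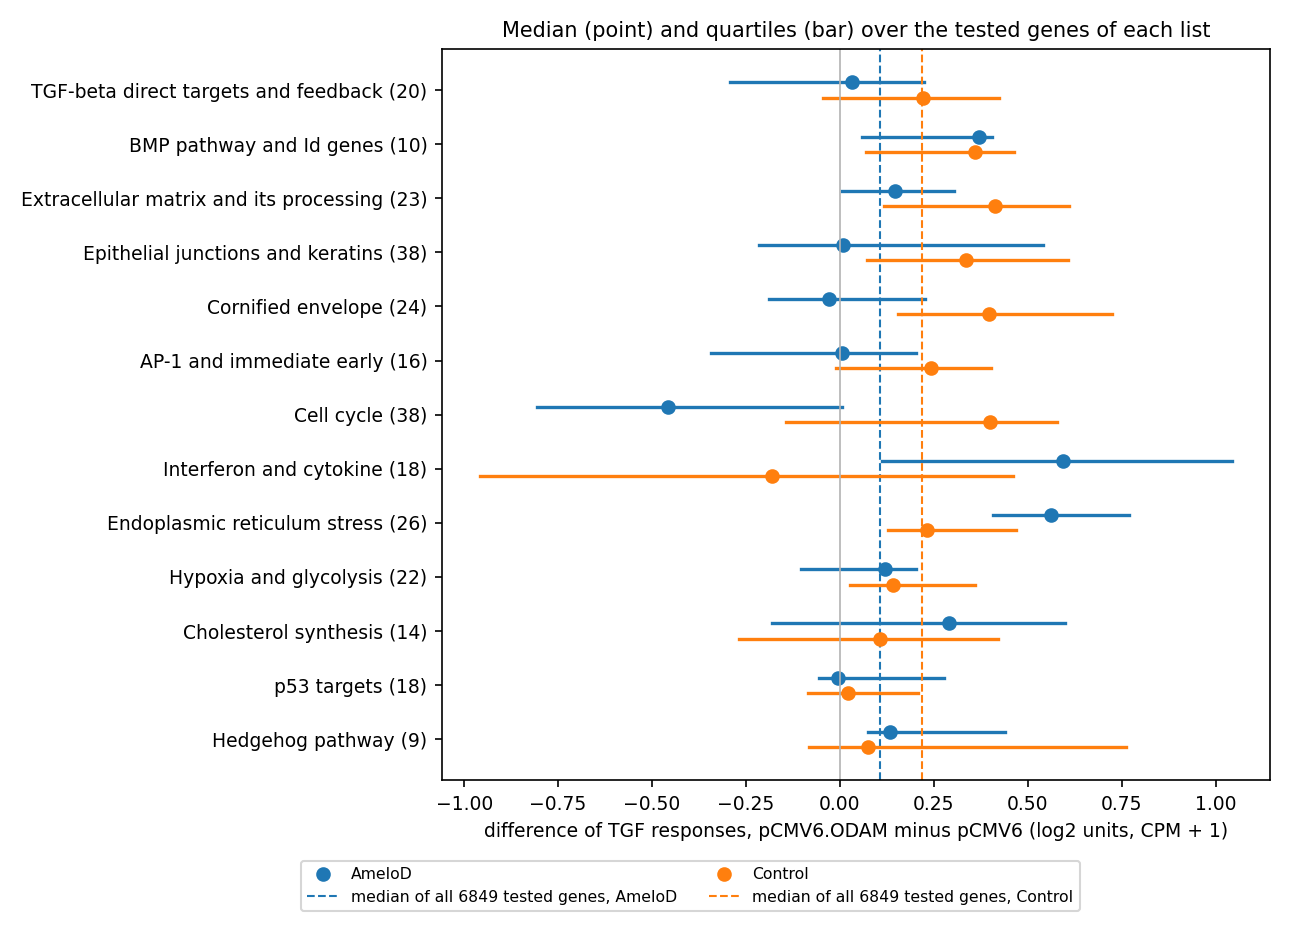
Median (point) and quartiles (bar) of the plasmid-by-TGF difference over the tested genes of 13 lists, in log2 units of CPM + 1 (x axis), for AmeloD (blue) and Control (orange), with the number of tested genes in brackets. Dashed lines mark the all-gene medians of 0.11 and 0.22, and the cell-cycle and interferon lists have their 2 points on opposite sides of 0.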

How the data were processed

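The authors deposited 1 table of CPM values (reads scaled to library total) per gene for 8 libraries, with a symbol, position and length per row. Per the labels' protocols, 3′ libraries (QIAseq UPX) were sequenced, mapped to mRatBN7.2 with STAR and counted with featureCounts. Versions per the submitters' processing notes were STAR 2.7.10a and featureCounts 2.0.1, after trimming with cutadapt 3.7, Trimmomatic 0.39 and Trim Galore 0.6.7. The notes also list DESeq2 1.20.0. No source used here says whether molecular identifiers or strand entered the counting, so overlapping and antisense genes are uncertain. Each library's CPM steps gave whole reads for 100% of nonzero values (tolerance 0.01 reads). Counting intervals and floors (3 reads) cover counting error only and take each read as a separate molecule.

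From the deposited CPM, log2(CPM + 1) was computed, which understates the change of low genes. limma 3.58.1 (eBayes with trend, R 4.3.3) fitted genotype, plasmid, TGF and plasmid by TGF over all 8 libraries, with Benjamini-Hochberg adjustment over 6849 genes and a threshold of 0.05. The interaction is the mean of the 2 genotype differences. edgeR 4.0.16 and DESeq2 1.42.0 on the recovered reads, pseudocounts of 0.5 and 2, other filters and scalings, all pairs of factors as terms and each library left out were alternatives. The fit was also run on simulated reads with known interactions. Those reads held no genotype or TGF effect and no response that differed between genotypes, so the run gives no error rate for these data.

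Genes are named by rule among those with a symbol and a mean of at least 10 CPM: any called, the 8 each way with the largest shared-sign value, the 4 each way with opposite signs, the 10 with the largest TGF term, and up to 3 per list. Some further genes, among them Hspa5, Tgfbi, Id1, Id3, Irf7, Icam1, Psmb9, Nfkb1, Relb and Nfkb2, were named outside this rule with their values known. The question, the 19 gene lists and this rule were chosen with earlier results of these data known. A gene and a gene list that entered the fit are not reported here.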

Additional observations from a re-analysis of the deposited data

Results flagged for a closer look

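In 8 genes the plasmid-by-TGF difference had opposite signs in AmeloD and Control, and in each case the difference between genotypes was not tested, because 1 library per combination leaves no degree of freedom for it. They were picked, among genes averaging 10 CPM or higher, as the 4 each way with the largest smaller absolute value. Cxcl6 had a plasmid-by-TGF difference of 2.33 in AmeloD and -2.99 in Control. Nfkbia had 1.09 and -0.98, Serpinb3a 1.63 and -0.76, and Serpinb7 0.90 and -0.73. In the reverse direction Spink5 had -1.16 and 2.48, Wfdc18 -1.03 and 1.45, Mgst3 -1.16 and 0.72, and Gabarap -0.85 and 0.67. All values are in log2 units of CPM + 1.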

How the results depend on the processing

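The call of 0 genes higher and 0 lower held under both pseudocounts, both filters, both scalings, all pairs of factors, edgeR and DESeq2. TMM scaling with all pairs of factors, added after seeing the data, called 4 lower (LOC120101240, Calm2, Atad2 and Gsta4), of which 1 was TGF-called. Its prior degrees of freedom were infinite, so each gene took the spread of the trend at its mean level. A gene's own residuals then had no separate weight. With each library left out in turn, genes called higher ran from 0 to 2, lower from 0 to 2 and TGF-called ones from 0 to 2. Without AmeloD pCMV6.ODAM TGF, Spink5 (2.03, adjusted p = 0.00701, limma) and Pof1b (1.36) were called higher and Cxcl6 (-2.10, adjusted p = 0.0104, limma) lower. Without Control pCMV6.ODAM N, Calm2 (-1.59) and Gsta4 (-4.17) were called lower. These fits have 2 residual degrees of freedom, and the combination left out is assumed to vary like the others. Without AmeloD pCMV6.ODAM TGF no AmeloD difference can be formed, so the values lean on Control (2.48 for Spink5 and -2.99 for Cxcl6). Without Control pCMV6.ODAM N the values lean on AmeloD, where Gsta4 had -4.31. The calls are therefore close to unreplicated differences of 1 genotype. The TGF term's own calls ran from 57 higher and 10 lower without AmeloD pCMV6 N to 158 and 55 without Control pCMV6.ODAM TGF, and were 70 and 11, 62 and 17, and 65 and 12 without AmeloD pCMV6.ODAM N, AmeloD pCMV6 TGF and Control pCMV6 N.

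The same-sign share was 55.7% with a 5 CPM filter, 42.0% with no filter, 51.0% with TMM, 50.6% with equal medians and 55.5% at a mean of at least 10 CPM. Genes past 1 log2 unit the same way in both genotypes numbered 55 and 0 with pseudocounts of 0.5 and 2, 1 with the 5 CPM filter, 11 with TMM and 12 with equal medians; those past it in opposite ways numbered 52, 4 and 3 with the pseudocounts and the 5 CPM filter. The response-signed AmeloD median was 0.0486 with TMM, 0.00851 with equal medians and 0.178 with the 5 CPM filter. The response-signed Control median was 0.07 with TMM (0.0695) and 0.0765 with equal medians. Of 62 named genes 48 never changed sign. Many of the 62 were chosen because their 2 genotype values share a sign, so this count partly follows from the choice. Every gene chosen for opposite signs changed sign under some alternative. Sign changes under TMM, equal medians, edgeR, DESeq2, and TMM with all pairs gave -0.134, -0.101, -0.0944, -0.153 and -0.134 for Nfkbia, -0.108, -0.0739, -0.146, -0.132 and -0.108 for Serpinb7, -0.134, -0.0952, -0.103, -0.101 and -0.134 for Jund, and -0.0300 with edgeR for Wfdc18. The cause was not tested beyond the shift in scale. With a library left out the interaction ran from -2.10 to 1.44 for Cxcl6, -0.43 to 0.54 for Nfkbia, -0.0748 to 0.94 for Serpinb3a, -0.26 to 0.43 for Serpinb7, -0.71 to 2.03 for Spink5, -0.31 to 0.73 for Wfdc18, -0.64 to 0.20 for Mgst3, -0.43 to 0.25 for Gabarap, -0.30 to 0.20 for Ccn2, -0.41 to 0.0803 for Fermt1, -0.36 to 0.98 for Prl8a7, -0.18 to 0.68 for Fn1, -0.27 to 0.40 for Jund and -0.27 to 0.16 for Klf6. Shares and medians of both genotypes have no value with a library left out. No paired analysis was possible because each combination has 1 library and the labels carry no replicate numbers. At this depth Odam and the other rows under the filter could not be tested.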

Other observations

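Gsta4, a glutathione transferase that clears lipid peroxidation products, was at 106 CPM in the AmeloD pCMV6.ODAM N library and at 1.76 to 4.63 CPM in the other 7. Its plasmid-by-TGF difference was -4.31 in AmeloD and 0.61 in Control, the most negative AmeloD value of the genes named here. Calm2, one of the genes for calmodulin, stood out in the same library: the chromosome 6 row was at 116 CPM there and at 37.8 to 58.0 CPM in the other 7, and a second row named Calm2, on chromosome 15, was at 11 CPM there and at 4.64 to 8.58 CPM elsewhere. Reads of such copies may be split between the rows. Both genes were picked after their values were seen.

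In the cornified-envelope list 9 of 24 tested genes were positive in both genotypes, 1 was negative in both (Csta) and 14 had opposite signs. Over all tested genes these shares were 40.7%, 12.4% and 46.8%. Of its members, 2 were picked after their values were seen. S100a9, a calgranulin subunit, was at 2.08 and 1.11 CPM under pCMV6 (N, then TGF) and 0.890 and 3.73 CPM under pCMV6.ODAM in AmeloD, and at 1.06 and 1.35, and 1.22 and 2.47 CPM in Control. Its differences were 1.87 and 0.46 (adjusted p = 0.578, limma). Evpl, which encodes envoplakin, had 0.54 and 1.28 (adjusted p = 0.578, limma).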
